A study of Mus musculus with 29 samples.

Results

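The hypothalamus of 6-month-old mice was compared with that of 2-month-old mice by RNA sequencing. The 3 libraries labelled 6 months (replicates 32, 33 and 34) and the 3 labelled 2 months (replicates 11, 12 and 13) were taken by their age labels, 6 of the 29 libraries of a series that runs from postnatal day 5 to 24 months. All the mice of both ages carry the same labels apart from age: wild-type C57BL/6 males, housed singly with 12 h of light and 12 h of dark, with tissue collected about 6 h after lights on. No treatment or altered allele is named for either age. The tissue label is hypothalamus, while the sample titles hold the letters thal. Each library was taken to be a separate mouse, which the labels do not spell out, so a p-value here speaks of the spread among the deposited libraries.

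The hypothalamus is made of many small nuclei that lie against the thalamus above, the basal forebrain in front and the midbrain behind. Each nucleus has its own transcription factors and peptides, so the RNA of a dissected block depends on where its borders fell. Oligodendrocytes wrap axons in myelin, astrocytes clear transmitters and potassium, and endothelial cells of brain vessels form the blood-brain barrier. For this reason gene lists were kept in 4 classes: regional, glial, vascular and metabolic. In bulk tissue, fewer cells of a type and less RNA per cell cannot be told apart.

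Depth was 29806510 to 39783779 gene counts per library at 6 months and 25744627 to 33712494 at 2 months, so that 3 counts made 0.075 to 0.116 CPM (counts scaled to the library size). All 6 libraries were male by their RNA: Xist was at most 0.399 CPM and Ddx3y was 78.5 to 93.6 CPM. Libraries stood apart at both ages. At 6 months, replicate 32 was rich in striatal genes (Adora2a, a striatal adenosine receptor, had 26.4 CPM there, against 3.36 and 2.94 in replicates 33 and 34). Replicate 34 held serotonin neuron genes of the hindbrain: Tph2, which makes serotonin there, had 24.7 CPM, against 1.43 and 0.56 in replicates 32 and 33. At 2 months, replicate 11 had 109 CPM of the nuclear RNA Malat1 and 6.74% of its counts from mitochondrial genes, against 414 and 397 CPM and 4.57 and 4.83% in replicates 12 and 13. No pair of libraries was a duplicate.

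At 6 months, 608 of 16916 tested genes (3.59%) differed from 2 months at an adjusted p below 0.05 (edgeR quasi-likelihood test, spread estimated over 28 libraries of 9 ages). Of these, 299 (1.77%) were higher and 309 (1.83%) lower at 6 months, and 77 and 33 of them by at least 2-fold. Genes of the hypothalamus led the higher set, among them oxytocin, vasopressin and the transcription factors Vax1 and Six6. The genes of myelin, vessels and metabolism that passed were all lower at 6 months. The shares of 1.77% higher and 1.83% lower are the ones to set beside each list count below. By class, 29 of 199 tested regional genes were higher and 4 lower. None of the called glial, vascular or metabolic genes was higher: 22 of 173 glial, 7 of 109 vascular and 16 of 210 metabolic genes were lower. The median log2 fold change was 0.07 for regional, −0.13 for glial, −0.31 for vascular and −0.20 for metabolic genes, beside −0.01 for all tested genes.

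These counts depended on which libraries set the spread. The same test on the 6 libraries alone called 0 genes (2042 had an unadjusted p below 0.05), and DESeq2 on those 6 called 343. Leaving out single libraries moved the count to between 51 (without 6-month replicate 33) and 1348 (without 2-month replicate 13). It was 189 without replicate 32, 902 without replicate 34, 88 without replicate 11 and 916 without replicate 12. Of the 77 called genes that the naming rule gave and that are reported here, 13 stayed called whichever of the 6 libraries was left out. The others lost their call without at least 1 library: 63 without replicate 33, 56 without replicate 11, 41 without replicate 32, 8 without replicate 34, 6 without replicate 12 and 1 without replicate 13. Higher at 6 months among these 13 were Oxt, Vax1, Six6, Dlx2, Dlx6, Isl1, Irs4, Mc3r, Pdyn and Sytl4, and lower were Mog, Cldn11 and 9630013A20Rik.

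**Figure D1:**
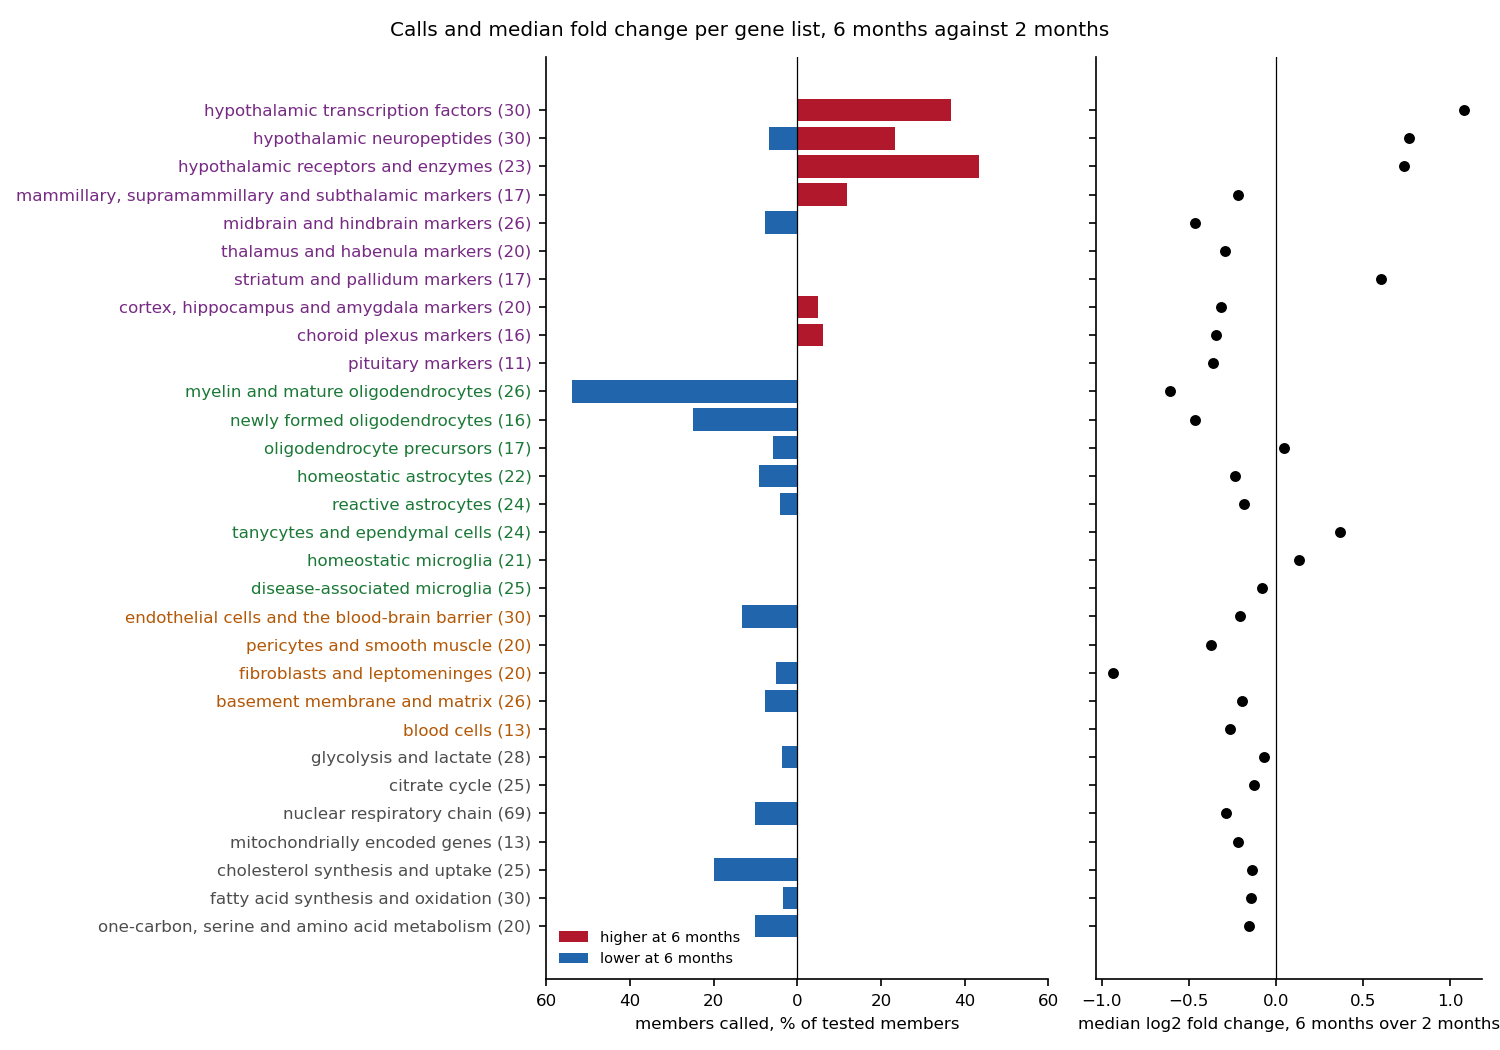
Share of tested members called higher (red, to the right) or lower (blue, to the left) at 6 months in each regional, glial, vascular and metabolic list, with the number tested in brackets, and beside it the median log2 fold change (6 months over 2 months). List names are coloured by class (regional purple, glial green, vascular orange, metabolic grey); red bars appear only in regional lists, and the longest blue bar is that of the myelin list, with 14 of 26 members.

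Among transcription factors that mark hypothalamic nuclei, all the calls were higher at 6 months. Of 30 tested members of this list, 11 were called, all higher at 6 months, and the median log2 fold change was 1.08. One of the 11, Irs4, is not a transcription factor but an adaptor of insulin receptor signalling that is abundant in the hypothalamus. The called factors were Six6, Vax1, Isl1, Dlx1, Dlx2, Dlx5, Dlx6, Fezf1, Sim1 and Otp. The libraries of the 2 ages did not overlap for 15 members, all higher at 6 months (10.7% of all tested genes were of that kind).

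Vax1, a homeobox gene of the ventral forebrain, had 12.1, 10.1 and 4.74 CPM at 6 months and 0.725, 1.33 and 2.32 CPM at 2 months. The lowest 6-month library was above the highest 2-month library, and the log2 fold change was 2.63 ± 0.42 (SE; adjusted p = 0.00273). Six6, needed for development of the suprachiasmatic nucleus and the eye, had 3.18, 4.31 and 2.26 CPM at 6 months and 0.616, 0.503 and 0.889 CPM at 2 months. Its log2 fold change was 2.29 ± 0.35 (adjusted p = 0.00187), and no library of one age reached the other.

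The paraventricular nucleus, which holds oxytocin and vasopressin neurons, depends on Otp and Sim1 for its development. Otp had 9.53, 14.5 and 15.4 CPM at 6 months and 2.54, 4.23 and 5.49 CPM at 2 months (log2 fold change 1.68 ± 0.38, adjusted p = 0.0197). Sim1 had 4.53, 7.67 and 7.07 CPM at 6 months and 2.83, 2.57 and 3.75 CPM at 2 months (1.07 ± 0.24, adjusted p = 0.0181). Both were thus higher in every 6-month library, although neither stayed called without replicate 33 or without replicate 11.

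Among genes of the ventromedial nucleus, a centre for energy balance and defence, 2-month replicate 13 stood apart from replicates 11 and 12. Fezf1, a zinc finger factor of that nucleus, had 8.35, 9.25 and 7.62 CPM at 6 months and 0.471, 0.621 and 3.6 CPM at 2 months (log2 fold change 2.48 ± 0.54, adjusted p = 0.0178). Nr5a1, the factor that specifies the nucleus, had 4.53, 5.43 and 4.16 CPM at 6 months and 0.145, 0.385 and 3.25 CPM at 2 months, and was not called (1.95 ± 0.74, adjusted p = 0.129). For both genes, replicates 11 and 12 of the 2-month group were close to nothing, while replicate 13 was near the 6-month level of Nr5a1.

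The Dlx genes, which direct the formation of GABA neurons, split the 6-month group. Dlx1 had 30.1, 22.2 and 7.72 CPM at 6 months and 6.67, 4.56 and 5.18 CPM at 2 months (log2 fold change 1.88 ± 0.38, adjusted p = 0.0113). Dlx2 had 17.3, 15.1 and 7.07 CPM at 6 months and 4.64, 3.82 and 3.02 CPM at 2 months (1.78 ± 0.33, adjusted p = 0.00623). Replicate 34, the library with hindbrain genes, was the lowest of the 6-month group for both, and also for Dlx6, Isl1, Vax1, Sp8 and Prdm12. The striatum expresses Dlx genes and Isl1 as well, and replicate 32, the library with striatal genes, was the highest for all of these. Without replicate 32, Dlx1, Sp8 and Prdm12 lost their call, and Dlx2, Dlx6, Isl1 and Vax1 kept it. The part of striatal RNA in these values was not tested.

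**Figure D2:**
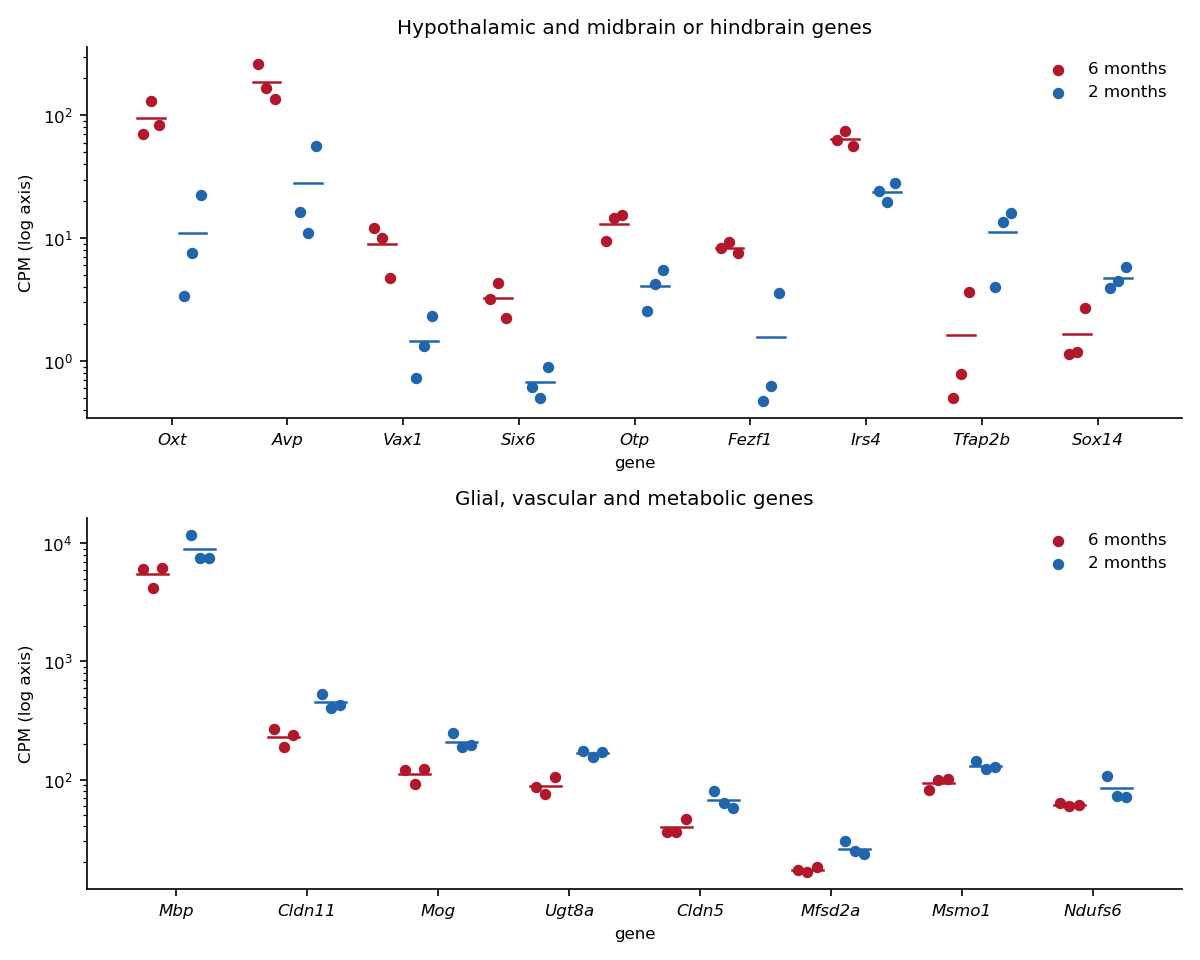
CPM of single genes in each library on a log axis, 6 months (red, left) and 2 months (blue, right); short lines are means of the 3 libraries. For Oxt, Avp, Vax1, Six6, Otp, Fezf1 and Irs4 the 6-month points lie above the 2-month points, and for Tfap2b, Sox14 and all genes of the lower panel they lie below.

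Oxytocin and vasopressin, the hormones that magnocellular neurons send to the posterior pituitary, had the largest rises of the peptides. Oxt had 70.1, 132 and 83.7 CPM at 6 months and 3.41, 7.54 and 22.3 CPM at 2 months. The mean was 95.2 ± 32.4 CPM at 6 months against 11.1 ± 9.91 CPM at 2 months (SD, n = 3 each), a log2 fold change of 3.12 ± 0.50 (adjusted p = 0.00372). Avp had 263, 166 and 137 CPM at 6 months and 16.5, 11.1 and 56.9 CPM at 2 months (2.75 ± 0.57, adjusted p = 0.014). Neither gene overlapped between the ages, but the 2-month libraries spread widely for each, with replicate 13 the highest. Avp did not stay called without replicate 11, 32 or 33. In the 4 libraries of 5 weeks Oxt lay between 102 and 220 CPM, and in the 3 of 12 months between 178 and 284 CPM. Every 2-month library was below both of those ranges, and every 6-month library was below that of 12 months. Replicates 32 and 34 of 6 months were also below the 5-week range of Oxt, and replicate 33 was within it. Avp lay between 230 and 372 CPM at 5 weeks and between 313 and 1040 CPM at 12 months. For Avp too, every 2-month library was below both ranges. Of the 6-month libraries, only replicate 32 reached the 5-week range of Avp, and none reached that of 12 months.

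The pair are neighbours on chromosome 2 and point towards each other. Oxt lies at chr2:130576173-130577054 on the plus strand and Avp at chr2:130580620-130582554 on the minus strand, with 3565 bases between them (GRCm38, GENCODE M21). The 250 bases before each RefSeq start are shown because these 2 genes had the highest fold changes of the named genes; windows are from GRCm38.p6, chr2:130575919-130576168 for Oxt and chr2:130582589-130582838 for Avp, each on its own strand, 5′ to 3′. Capitals mark matches on either strand to TGACCT, the short element that nuclear hormone receptors bind, and to the motif CATAAA, which lies close to the start in both genes.
Oxt: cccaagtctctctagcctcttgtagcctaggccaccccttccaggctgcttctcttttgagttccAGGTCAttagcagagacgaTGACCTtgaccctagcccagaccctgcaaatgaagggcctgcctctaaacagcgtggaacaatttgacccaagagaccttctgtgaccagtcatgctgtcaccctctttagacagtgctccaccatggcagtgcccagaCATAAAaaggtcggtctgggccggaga
Avp: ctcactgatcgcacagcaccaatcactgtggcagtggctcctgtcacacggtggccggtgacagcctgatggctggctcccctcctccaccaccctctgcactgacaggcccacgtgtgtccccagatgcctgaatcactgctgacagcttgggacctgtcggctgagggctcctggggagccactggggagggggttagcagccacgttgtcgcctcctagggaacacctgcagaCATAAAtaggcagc
TGACCT was found in 4607 of 32851 such windows (14%), 2 times in Oxt and not in Avp. CATAAA was found in 3536 windows (10.8%), once in each of these 2, and the motifs do not overlap. These letters were picked after the windows had been read, and a match is a description only.

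Besides Oxt and Avp, 5 peptide genes of the hypothalamus were called higher at 6 months, by smaller steps. Of 30 tested peptide genes of 31 found, 7 in all were higher and 2 lower at 6 months, with a median log2 fold change of 0.77. Pdyn, the dynorphin precursor that is also made by vasopressin neurons, had 61.6, 37.1 and 30.2 CPM at 6 months and 14.4, 17.8 and 19.6 CPM at 2 months (log2 fold change 1.32 ± 0.21, adjusted p = 0.0025). Its highest value was in replicate 32, the library with striatal genes, and the part of striatal RNA in the Pdyn values was not tested. With 1 library left out, its log2 fold change ran from 0.96 to 1.52. Trh, the releasing hormone for thyrotropin, had 36.2, 57.9 and 42.5 CPM at 6 months and 19.6, 18.7 and 15.8 CPM at 2 months (1.34 ± 0.30, adjusted p = 0.0199). Galanin (Gal), a peptide of several nuclei, had 16, 20.1 and 12.9 CPM at 6 months and 5.44, 6.63 and 7.77 CPM at 2 months (1.31 ± 0.25, adjusted p = 0.00695). Neurotensin (Nts) and Qrfp, a feeding peptide, completed the higher set. Nts had 35.8, 30.1 and 16.6 CPM at 6 months and 12.8, 13 and 12 CPM at 2 months (1.13 ± 0.27, adjusted p = 0.0266).

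Grp and Bdnf were the 2 peptide genes called lower at 6 months. Grp, gastrin-releasing peptide, had 2.8, 4.38 and 5.43 CPM at 6 months and 10.2, 9.76 and 6.57 CPM at 2 months (log2 fold change −1.08 ± 0.22, adjusted p = 0.0105). Bdnf, a growth factor for neurons, averaged 14.9 CPM at 6 months and 22.9 CPM at 2 months (−0.63 ± 0.16, adjusted p = 0.0313).

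Several well known feeding and sleep peptides were not called. Pomc, the precursor of the melanocortins, had 32.5, 22.9 and 21.1 CPM at 6 months and 9.43, 5.77 and 16.6 CPM at 2 months, without overlap, and missed the threshold (log2 fold change 1.28 ± 0.41, adjusted p = 0.0793). Orexin (Hcrt) had 82.2, 86.2 and 70.3 CPM at 6 months and 14.8, 61.8 and 66.1 CPM at 2 months (0.74 ± 0.53, adjusted p = 0.428). Replicate 11 was the low library, and without it the log2 fold change was 0.33. Melanin-concentrating hormone (Pmch) also had its lowest value there, 5.58 CPM (0.84 ± 0.35, adjusted p = 0.169). Agrp and Npy, which drive feeding from the arcuate nucleus, overlapped between the ages: Agrp had a log2 fold change of 0.13 ± 0.35 (adjusted p = 0.855) and Npy of −0.27 ± 0.31 (adjusted p = 0.629). Somatostatin (Sst) had 0.10 ± 0.21 (adjusted p = 0.813) and corticotropin-releasing hormone (Crh) 0.72 ± 0.35 (adjusted p = 0.226).

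Receptors and other signalling genes of hypothalamic neurons gave 10 called members of 23 tested, all higher at 6 months, with a median log2 fold change of 0.73. Irs4 had 63.1, 74.3 and 56.2 CPM at 6 months and 24.2, 19.6 and 28 CPM at 2 months (log2 fold change 1.43 ± 0.23, adjusted p = 0.00351). The calcitonin receptor gene Calcr, which acts in satiety, had 11.4, 14.4 and 11.4 CPM at 6 months and 5.4, 4.32 and 5.99 CPM at 2 months (1.25 ± 0.23, adjusted p = 0.00673). Mc3r, a melanocortin receptor, had 5.3, 5.89 and 3.89 CPM at 6 months and 1.96, 2.16 and 3.05 CPM at 2 months (1.08 ± 0.18, adjusted p = 0.0041). No library crossed between the ages for these 3.

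Npffr1, Gpr101, Brs3, Glp1r, Prlr and Magel2 were also called, with log2 fold changes of 0.80 to 1.34. The prolactin receptor gene Prlr is also made by the choroid plexus. Ttr, the main choroid plexus transcript, ran at 930, 33.7 and 11 CPM at 6 months and 218, 1000 and 116 CPM at 2 months. Prlr itself had 40, 43 and 28.6 CPM at 6 months and 12.3, 24.4 and 19.8 CPM at 2 months. Of 16 tested choroid plexus markers, Prlr among them, 14 had negative and 2 positive log2 fold changes, with a median of −0.34. The part of choroid plexus RNA in the Prlr values was not tested.

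The imprinted genes Magel2, Peg10 and Grb10 were called higher at 6 months, 3 of 18 tested in their list (1.77% of all tested genes were called higher). Magel2, from the region lost in Prader-Willi syndrome, had 37.7, 40.5 and 24.4 CPM at 6 months and 14, 15.4 and 19.8 CPM at 2 months (log2 fold change 1.06 ± 0.26, adjusted p = 0.0277). Peg10, derived from a retrotransposon, averaged 219 ± 34.6 CPM at 6 months and 108 ± 26.7 CPM at 2 months (1.01 ± 0.24, adjusted p = 0.0229). Grb10, a brake on insulin and growth factor receptors, averaged 140 ± 9.61 CPM at 6 months and 100 ± 13.4 CPM at 2 months (0.48 ± 0.10, adjusted p = 0.0122; SD, n = 3 each).

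In the hypothalamic lists, the number of calls moved with single libraries. The transcription factors had 6 to 14 members called, the peptides 2 to 12 and the receptors 2 to 12 when 1 of the 6 libraries was left out. All 3 lists were at their lowest without replicate 33 and at their highest without replicate 34; without replicate 11 the counts were 7, 2 and 4, and without replicate 32 they were 9, 4 and 4.

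Of the tested markers of midbrain and hindbrain, 7.69% were called lower at 6 months, beside 1.83% of all tested genes. Of 35 markers, 26 passed the filter on low counts, 2 were called, both lower at 6 months, 17 fold changes were negative and 9 positive, and the median log2 fold change was −0.47. Tfap2b, a transcription factor of the midbrain, had 0.5, 0.79 and 3.63 CPM at 6 months and 4.02, 13.5 and 16.2 CPM at 2 months (log2 fold change −2.80 ± 0.60, adjusted p = 0.0151). Sox14, a factor of GABA neurons in the thalamus and midbrain, had 1.15, 1.18 and 2.68 CPM at 6 months and 3.92, 4.47 and 5.88 CPM at 2 months (−1.51 ± 0.33, adjusted p = 0.0153). The libraries of the 2 ages did not overlap for 7 members that were lower and 1 that was higher at 6 months. Among all tested genes, 11.1% and 10.7% were of these kinds. At an unadjusted p below 0.05 there were 12 members, and DESeq2 called 3. Without replicate 34, 9 members were called, and without replicate 32 or 33 none.

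Several markers that were not called set replicate 34 apart from the other 6-month libraries, in either direction against 2 months. Urocortin (Ucn), a peptide of the Edinger-Westphal nucleus, had 0.05, 0.132 and 6.02 CPM at 6 months and 14.2, 8.84 and 7.42 CPM at 2 months (adjusted p = 0.183). Gata3 had 1.35, 0.428 and 7.46 CPM at 6 months and 8.41, 7.37 and 9.63 CPM at 2 months (adjusted p = 0.238). Relaxin-3 (Rln3), of the nucleus incertus, had 0.7, 0.461 and 3.86 CPM at 6 months and 5.58, 5.47 and 4.68 CPM at 2 months (adjusted p = 0.0715). These 3 genes were low in replicates 32 and 33 and nearer to the 2-month level in replicate 34. The serotonin neuron gene Tph2, in contrast, had 1.43, 0.56 and 24.7 CPM at 6 months and 0.399, 3.05 and 5.99 CPM at 2 months, a positive log2 fold change of 1.496 ± 0.83 (adjusted p = 0.292) with replicate 34 above every other library. Across the list, log2 fold changes ran from −2.92 to 2.79. Summed over the 26 markers, the level ran from 50.3 to 138 CPM at 6 months and from 94.8 to 149 CPM at 2 months.

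Striatal and pallidal markers gave no call, but all 17 had positive log2 fold changes, with a median of 0.60. Their mean log2 CPM was 5.11, 3.80 and 3.53 at 6 months and 3.68, 3.69 and 3.51 at 2 months, so replicate 32 stood far above the 2-month level, replicate 33 just above it and replicate 34 within it. At an unadjusted p below 0.05 there were 7 such genes, and DESeq2 called 3. Of 20 markers of thalamus and habenula, 17 had negative fold changes and none was called by edgeR or DESeq2 (2 at an unadjusted p below 0.05). Their mean log2 CPM was 5.00, 5.72 and 5.68 at 6 months and 5.73, 5.84 and 5.88 at 2 months, with replicate 32 the low one. Of 11 tested pituitary markers none was called (1 at an unadjusted p below 0.05, and 1 by DESeq2), and the choroid plexus list had Prlr alone.

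**Figure D3:**
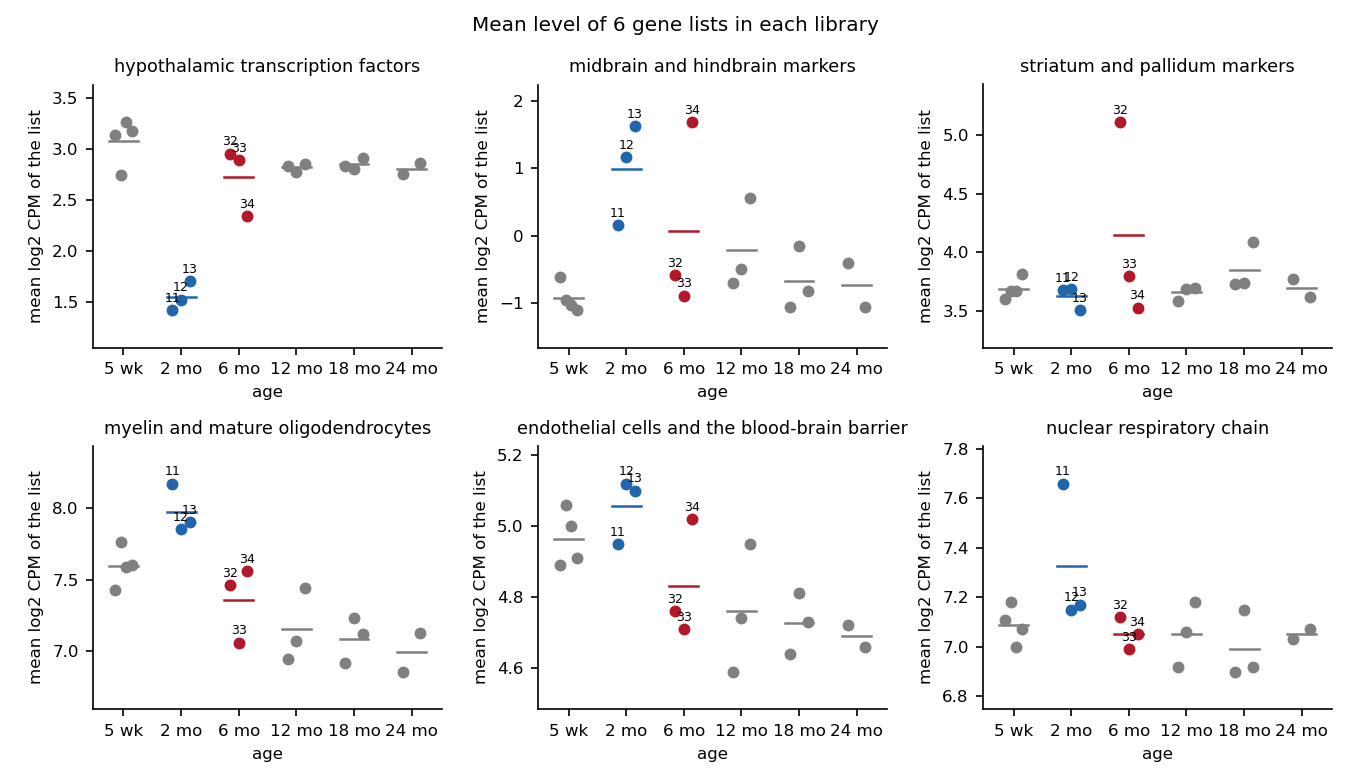
Mean log2 CPM of 6 gene lists in each library from 5 weeks to 24 months (2 libraries at 24 months), in order of age; 6 months is red, 2 months blue, other ages grey, lines are age means, and the small numbers are replicates. Of these ages, the 2-month libraries are the lowest for hypothalamic transcription factors, at 1.42 to 1.70, and the highest for myelin genes, at 7.85 to 8.17.

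Seen across ages, the 2-month libraries were the ones out of line for the hypothalamic transcription factors. Their mean log2 CPM was 2.95, 2.89 and 2.34 at 6 months and 1.42, 1.52 and 1.70 at 2 months. It was 2.74 to 3.26 in the 4 libraries of 5 weeks, 2.77 to 2.85 at 12 months and 2.80 to 2.91 at 18 months. Tfap2b lay between 0.349 and 0.411 CPM at 5 weeks and between 0.465 and 2.12 CPM at 12 months, below each 2-month value. These ages are given as a description and were not tested against the 6 libraries.

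Myelin genes were lower at 6 months. Of 26 tested myelin and mature oligodendrocyte genes, 14 were called, all lower at 6 months, all 26 had negative log2 fold changes, and the median was −0.61. For 23 of the 26 every 6-month library was below every 2-month library (11.1% of all tested genes were of that kind). Summed over the list, the level was 10800 to 15500 CPM at 6 months and 19300 to 26900 CPM at 2 months.

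Mog, a protein of the outer myelin surface, had 120, 92.5 and 122 CPM at 6 months and 246, 187 and 196 CPM at 2 months. Its mean was 111 ± 16.3 CPM at 6 months and 210 ± 32 CPM at 2 months (SD, n = 3 each), with a log2 fold change of −0.91 ± 0.13 (adjusted p = 0.00118). Cldn11, which seals the layers of the sheath, had 266, 187 and 239 CPM at 6 months and 527, 403 and 425 CPM at 2 months (−0.97 ± 0.15, adjusted p = 0.0025). These 2 stayed called whichever library was left out.

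The structural proteins of myelin are among the most abundant transcripts in the tissue. Mbp, which binds the membranes of the sheath together, had 6010, 4170 and 6180 CPM at 6 months and 11800, 7520 and 7540 CPM at 2 months (log2 fold change −0.71 ± 0.19, adjusted p = 0.037). Replicate 33 was the lowest of the 6-month group and replicate 11 the highest of the 2-month group, and Mbp did not stay called without replicate 11 or without replicate 32 or 33.

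A few called genes code for enzymes of lipid synthesis. From the myelin list, Ugt8a, which makes galactocerebroside, had 85.7, 75.3 and 104 CPM at 6 months and 175, 156 and 170 CPM at 2 months (log2 fold change −0.92 ± 0.17, adjusted p = 0.00569). Fa2h, which hydroxylates the fatty acids of these lipids, had 73.8, 57.4 and 80.3 CPM at 6 months and 119, 129 and 128 CPM at 2 months (−0.83 ± 0.15, adjusted p = 0.00569). Elovl1, which lengthens saturated fatty acids and was the only call of 30 genes of fatty acid synthesis and oxidation, had 18.5, 14.1 and 17.8 CPM at 6 months and 29.7, 25.7 and 25.7 CPM at 2 months (−0.69 ± 0.12, adjusted p = 0.00495). Mal, Cnp, Mobp, Tspan2, Mag, Gjc3, Ppp1r14a and Cryab were also called in the myelin list, with log2 fold changes of −0.91 to −0.52.

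Genes of newly formed oligodendrocytes gave 4 calls of 16 tested, all lower at 6 months, with a median log2 fold change of −0.46. The non-coding RNA 9630013A20Rik, a marker of cells that have just begun to differentiate, had 1.98, 2.4 and 2.09 CPM at 6 months and 6.78, 6.71 and 8.7 CPM at 2 months. Its log2 fold change was −1.78 ± 0.26 (adjusted p = 0.00118), with 3 tight values on each side. Bmp4, a secreted signal also found in these cells, had 1.65, 1.51 and 3.04 CPM at 6 months and 4.24, 3.79 and 4.64 CPM at 2 months (−1.03 ± 0.23, adjusted p = 0.0162). Sirt2, a deacetylase of myelin, and Rras2, a small GTPase, had log2 fold changes of −0.50 ± 0.11 and −0.57 ± 0.14. Gpr17, a receptor of the same stage, overlapped between the ages and missed the threshold (−0.45 ± 0.13, adjusted p = 0.0573).

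Precursor cells gave less. Of 17 tested genes of oligodendrocyte precursors, only Olig1, which mature oligodendrocytes also express, was called (log2 fold change −0.51 ± 0.13, adjusted p = 0.0298), and the list median was 0.04. Pdgfra, the growth factor receptor that defines precursors, had 75.8, 72.3 and 66.5 CPM at 6 months and 50.5, 70.9 and 66 CPM at 2 months (0.19 ± 0.09, adjusted p = 0.207).

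The mean log2 CPM of the myelin list was 7.46, 7.06 and 7.56 at 6 months and 8.17, 7.85 and 7.90 at 2 months. In the 5-week libraries it lay between 7.43 and 7.76 and in the 12-month libraries between 6.95 and 7.44, so the 2-month libraries were above those of both these ages. Single genes did not all follow the list: Mog lay between 171 and 214 CPM at 5 weeks, where it overlapped 2 months, and between 77.1 and 104 CPM at 12 months. Cldn11 lay between 507 and 601 CPM at 5 weeks, above 2 of the 3 libraries of 2 months, and between 159 and 221 CPM at 12 months. The list of newly formed oligodendrocytes ran at 5.12 to 5.32 at 5 weeks, 4.93 to 5.00 at 2 months, 4.47 to 4.64 at 6 months and 4.33 to 4.44 at 12 months, a descending order with no overlap between these 4 ages. The number of myelin genes called was 2 without replicate 33, 4 without replicate 11, 9 without replicate 32, 18 without replicate 34 and 15 without replicate 12 or 13.

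Among astrocyte genes, 2 of 22 were called, both lower at 6 months, and the median log2 fold change was −0.24. At an unadjusted p below 0.05 there were 14, and DESeq2 called 7. The libraries of the 2 ages did not overlap for 9 that were lower and 1 that was higher (11.1% and 10.7% of all tested genes). Kcnj10, the potassium channel through which astrocytes buffer potassium, had 359, 409 and 475 CPM at 6 months and 641, 489 and 576 CPM at 2 months (−0.46 ± 0.10, adjusted p = 0.0181). Aldoc, the aldolase of astrocytes, had 1070, 957 and 1170 CPM at 6 months and 1920, 1220 and 1200 CPM at 2 months (−0.44 ± 0.12, adjusted p = 0.0467). Without replicate 11, the highest library, the Aldoc value was −0.17. The water channel gene Aqp4 had 198, 163 and 234 CPM at 6 months and 328, 274 and 288 CPM at 2 months, without overlap, and missed the threshold (−0.58 ± 0.18, adjusted p = 0.068). Gfap, the filament protein of reactive astrocytes, overlapped (−0.55 ± 0.35, adjusted p = 0.367), and of 24 reactive astrocyte genes only Hspb1, a small heat shock protein, was called (−0.77 ± 0.18, adjusted p = 0.0184).

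Microglia, the immune cells of the brain, gave 0 calls by edgeR in both their lists of 21 homeostatic and 25 disease-associated genes. At an unadjusted p below 0.05 there were 4 and 5, and DESeq2 called 2 and 1. Some immune genes outside both lists were called: Itgam, Hpgds and C3 were higher (log2 fold changes 0.57, 0.56 and 1.33) and Itgad was lower (−1.55). Of the homeostatic genes, 17 had positive log2 fold changes and the median was 0.13. The fractalkine receptor gene Cx3cr1 had 53.4, 40.6 and 42.5 CPM at 6 months and 28, 41.9 and 36.5 CPM at 2 months (0.36 ± 0.11, adjusted p = 0.0651). Tmem119 had 24.1, 20.1 and 21.2 CPM at 6 months and 16.6, 24 and 20.2 CPM at 2 months (0.11 ± 0.14, adjusted p = 0.699). Tanycytes and ependymal cells, which line the third ventricle, had no called gene of 24 (6 at an unadjusted p below 0.05, and 3 by DESeq2) and a median of 0.37.

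A few vessel genes were called, all lower at 6 months. Of 30 tested endothelial and blood-brain barrier genes, 4 were called, 24 fold changes were negative and 6 positive, with a median log2 fold change of −0.21. Mfsd2a, a lipid transporter that keeps transcytosis low at the barrier, had 17.1, 16.4 and 18.1 CPM at 6 months and 29.9, 24.7 and 23.4 CPM at 2 months (log2 fold change −0.59 ± 0.14, adjusted p = 0.0197). Cldn5, the main tight junction protein of brain endothelium, had 35.8, 35.7 and 46.5 CPM at 6 months and 80, 62.8 and 56.9 CPM at 2 months (−0.76 ± 0.21, adjusted p = 0.044). Itm2a and Ly6c1, membrane proteins of endothelial cells, had log2 fold changes of −0.55 ± 0.12 and −0.55 ± 0.14; Ly6c1 has near-identical copies, so its counts are uncertain. All 4 were lower in each 6-month library than in any 2-month library.

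Cells around the vessels gave no call. None of 20 pericyte and smooth muscle genes was called by edgeR or DESeq2 (5 at an unadjusted p below 0.05), although 17 fold changes were negative and 3 positive, with a median log2 fold change of −0.37. Pdgfrb, the receptor that defines pericytes, had 25.1, 21.8 and 26.3 CPM at 6 months and 24.5, 31.1 and 27.2 CPM at 2 months (−0.18 ± 0.11, adjusted p = 0.328). Acta2, the actin of smooth muscle, had 15.7, 15.3 and 34.9 CPM at 6 months and 26, 31.8 and 39.6 CPM at 2 months, where replicate 34 again sat with the 2-month group.

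Fibroblast and leptomeningeal genes, which come from the membranes on the brain surface, had the lowest median of all lists in these 4 classes, −0.93, although 1 of 20 was called. Col3a1, a fibrillar collagen, had 1.65, 1.65 and 5.07 CPM at 6 months and 8.81, 10.2 and 11.5 CPM at 2 months (log2 fold change −1.88 ± 0.47, adjusted p = 0.03). The mean log2 CPM of the list was 3.06, 2.59 and 3.98 at 6 months and 4.37, 4.20 and 4.17 at 2 months, so replicate 34 was close to the 2-month level here too. In the matrix list, 2 of 26 were called: Serpinh1, the collagen chaperone, had 20.9, 16.4 and 20.1 CPM at 6 months and 36.8, 28.8 and 29.8 CPM at 2 months (−0.73 ± 0.17, adjusted p = 0.0184), and the glycoprotein Tnc was also lower (−0.99 ± 0.27, adjusted p = 0.0446). In the vascular class 7 genes were called in all, 20 without replicate 34, 1 without replicate 11 or 32 and none without replicate 33.

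Of 210 tested metabolic genes, 16 were called, all lower at 6 months; without replicate 11, or without replicate 33, only 1 was called. The list with the most calls was the nuclear-encoded respiratory chain, where 7 of 69 tested genes were called, all lower at 6 months, all 69 fold changes were negative, and the median was −0.29. Ndufs6, a subunit of complex I, had 63.7, 59.6 and 60.3 CPM at 6 months and 108, 72.4 and 71.7 CPM at 2 months (log2 fold change −0.45 ± 0.11, adjusted p = 0.0231). Atp5k, a subunit of the ATP synthase, had 54.3, 45.3 and 36.4 CPM at 6 months and 89, 59.7 and 61.2 CPM at 2 months (−0.63 ± 0.16, adjusted p = 0.029). Ndufa1, Uqcrb, Atp5h, Uqcrq and Ndufs8 were the others.

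Replicate 11 was the highest library in this group by a wide margin. The list's mean log2 CPM was 7.12, 6.99 and 7.05 at 6 months and 7.66, 7.15 and 7.17 at 2 months. Without replicate 11 none of the 69 was called, nor without replicate 33, while 31 were called without replicate 12 and 32 without replicate 13. The same library was high in cytosolic ribosomal protein genes, where the mean log2 CPM was 7.82, 7.64 and 7.58 at 6 months and 8.23, 7.64 and 7.60 at 2 months and no gene of 78 was called (13 at an unadjusted p below 0.05, and 2 by DESeq2). It also had the most mitochondrial and the least Malat1 RNA of the 6 libraries, and the part of these in the respiratory chain values was not tested. None of 13 mitochondrially encoded genes was called by edgeR or DESeq2 (1 at an unadjusted p below 0.05).

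Cholesterol is made in the brain itself and is a main lipid of myelin. Of 25 genes of its synthesis and uptake, 5 were called, all lower at 6 months, with a median log2 fold change of −0.14. Msmo1, a late enzyme of the pathway, had 82, 98.2 and 101 CPM at 6 months and 143, 123 and 128 CPM at 2 months (log2 fold change −0.48 ± 0.09, adjusted p = 0.00661). Cyp51, which acts on lanosterol, had 80, 97.7 and 99 CPM at 6 months and 131, 114 and 120 CPM at 2 months (−0.40 ± 0.09, adjusted p = 0.0161). Mvd, Ebp and Dhcr7, further enzymes of the pathway, had log2 fold changes of −0.55 ± 0.13, −0.48 ± 0.11 and −0.30 ± 0.08. Without replicate 11 none of the 25 was called, and without replicate 32 or 33 there was 1 each.

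In carbohydrate metabolism little passed. Aldoc was the only call among 28 glycolysis and lactate genes, and the citrate cycle had none of 25 (9 at an unadjusted p below 0.05, and 2 by DESeq2). Ldha, lactate dehydrogenase, averaged 185 ± 18.1 CPM at 6 months and 194 ± 23.4 CPM at 2 months (SD, n = 3 each; adjusted p = 0.674). Gpd1, the cytosolic glycerol-3-phosphate dehydrogenase, which is in none of the lists and is high in oligodendrocytes, had 42.1, 39.3 and 56.6 CPM at 6 months and 111, 83.6 and 73.1 CPM at 2 months (log2 fold change −0.96 ± 0.17, adjusted p = 0.00498). In amino acid metabolism, Atf4, a transcription factor of the response to amino acid shortage, had 107, 107 and 108 CPM at 6 months and 166, 124 and 124 CPM at 2 months (−0.37 ± 0.09, adjusted p = 0.0229). Ddit4, an inhibitor of mTORC1 from the same list, had 46.3, 40.3 and 43.8 CPM at 6 months and 75.1, 64.4 and 63.8 CPM at 2 months (−0.64 ± 0.13, adjusted p = 0.0098). The metabolic class had 16 calls in all, 49 without replicate 12, 53 without replicate 13, 5 without replicate 32, and 1 without replicate 11 or 33.

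Called genes outside the lists were found in both directions, and those that the naming rule gave (at least 5 CPM in the higher age, no overlap between the ages) are described here. Prdm12, a transcription factor of Pomc neurons, had 10.5, 7.18 and 2.23 CPM at 6 months and 1.05, 0.799 and 1.59 CPM at 2 months (log2 fold change 2.55 ± 0.51, adjusted p = 0.00946). Sytl4, a protein of secretory granules, had 26.6, 35 and 22.2 CPM at 6 months and 11.5, 6.54 and 10.2 CPM at 2 months (1.57 ± 0.24, adjusted p = 0.00223). The zinc finger gene Sp8 and the receptor gene Adgrd1 were also higher (2.39 ± 0.53 and 1.82 ± 0.38). On the lower side, Gsn, an actin-severing protein, had 80.3, 56.4 and 82.8 CPM at 6 months and 169, 134 and 130 CPM at 2 months (−0.98 ± 0.19, adjusted p = 0.00718). Vipr2, a receptor for vasoactive intestinal peptide, had 4.3, 8.92 and 10 CPM at 6 months and 19.9, 13.3 and 14.9 CPM at 2 months (−1.06 ± 0.29, adjusted p = 0.0446). Slc45a3, a solute carrier, Cplx3, a complexin of vesicle release, and Gng13, a G protein subunit, fell by 1.09, 0.97 and 0.92 on the log2 scale.

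To set regional genes apart from the rest, the model was refitted with 2 regional terms, the mean log2 CPM of the hypothalamic transcription factors and of the midbrain and hindbrain markers in each library. With both terms no gene was called by edgeR, and 1897 had an unadjusted p below 0.05. With the midbrain and hindbrain term alone 165 genes were called, and with the hypothalamic term alone none (1797 at an unadjusted p below 0.05). Members of the term lists have no value here, since they made the terms.

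The hypothalamic term is itself built from genes that differed between the 2 ages, so regional genes that vary with it had to shrink in this model, and the classes cannot be compared by how much remained. The values are given as a description. Among called regional genes outside the term lists (20), the median log2 fold change was 0.19 with both terms, against 1.13 without them, and 16 of 20 kept their sign. Among the 22 called glial genes it was −0.39 with the terms, against −0.71 without, and all 22 kept their sign. The 7 vascular genes had −0.47 with the terms, against −0.73 without, and the 15 metabolic genes −0.30, against −0.45, with the sign kept in all. The median standard error of the glial genes was 0.227 with the terms. The median standard error of the called genes also grew, to 0.18 for higher and 0.17 for lower genes, against 0.13 and 0.11 without the terms.

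**Figure D4:**
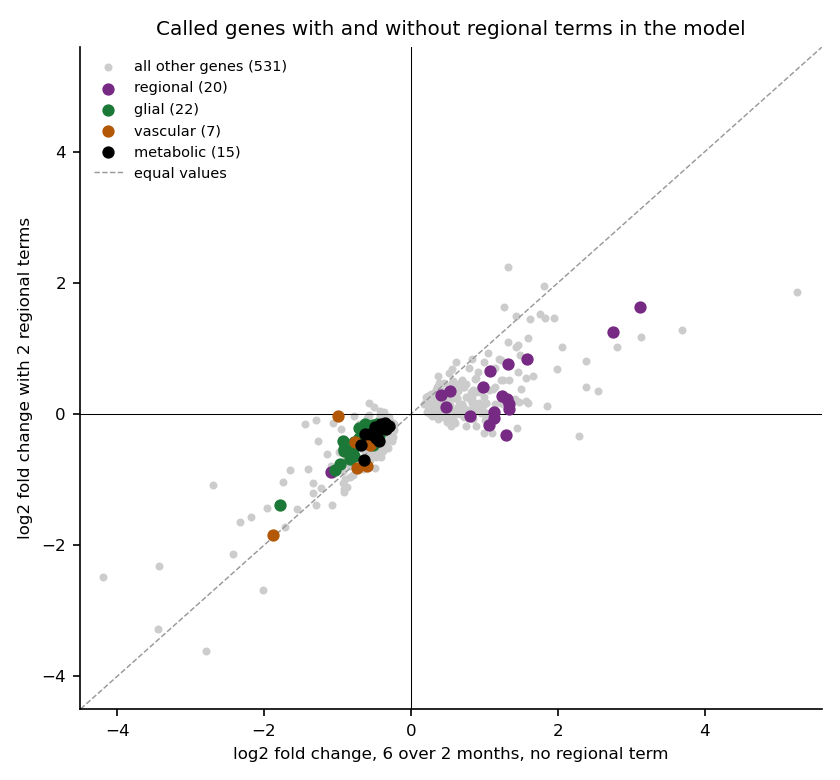
Log2 fold change (6 months over 2 months) of each called gene in the model with 2 regional terms (vertical) against the model without them (horizontal); colours mark the list classes and the dashed line marks equal values. The medians with and without the terms are 0.19 and 1.13 for regional genes and −0.39 and −0.71 for glial genes; the terms are built from regional genes, so the classes are not to be compared by this.

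Single regional genes differed in how much stayed. Oxt kept a log2 fold change of 1.64 with both terms (adjusted p = 0.279), against 3.12 without them. Nts, Peg10 and Magel2 changed sign, to −0.07, −0.09 and −0.16. The medians of whole lists moved in several ways. Some came closer to 0: neuropeptides to −0.21 and receptors to −0.03 with both terms, against 0.77 and 0.73 without, and myelin to −0.32, against −0.61. Homeostatic astrocytes hardly moved, with −0.25 against −0.24, and fibroblasts had −1.0 against −0.93. Others went further from 0: pituitary markers to −1.52, against −0.36 without the terms, immediate early genes to −0.47, against −0.11, glucocorticoid-responsive genes to −0.46, against −0.20, and basement membrane and matrix to −0.32, against −0.20. Thalamus and habenula markers turned to 0.52, against −0.29.

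Other gene lists gave few or no calls. None of 35 synapse genes, 19 circadian clock genes, 29 interferon genes and 22 genes of proliferation and immature neurons was called by edgeR. At an unadjusted p below 0.05 there were 6, 2, 2 and 5 of them, and DESeq2 called 3, 0, 0 and 1. Immune genes outside the interferon list were called in both directions. H2-Q2, H2-Q6 and Gbp11 were higher (log2 fold changes 0.80, 1.27 and 1.32), and Ifitm1 and Irf3 were lower (−1.33 and −0.37). The clock gene Per1 had 68.4, 68.1 and 62.1 CPM at 6 months and 40.7, 65 and 63.8 CPM at 2 months (adjusted p = 0.466). Jun, an immediate early transcription factor, had 47.6, 47.7 and 48.9 CPM at 6 months and 82.2, 71.9 and 56.9 CPM at 2 months (log2 fold change −0.55 ± 0.11, adjusted p = 0.00734), and was the only call of 26 such genes; Fos overlapped (adjusted p = 0.723). Among 18 glucocorticoid-responsive genes Nfkbia, an inhibitor of NF-κB, was called (−0.42 ± 0.11, adjusted p = 0.0279) and Fkbp5 was not (0.14 ± 0.13, adjusted p = 0.523). Single calls were also made for Kcnab3, a potassium channel subunit (of 23 tested in its list), Igfbp3, a binder of insulin-like growth factors (of 20), and Cat, catalase (of 22). Each of these was lower at 6 months, with log2 fold changes of −0.70, −0.47 and −0.36. Single calls in lists of this size are near the share called among all tested genes, 3.59%.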

How the data were processed

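Hypothalamic RNA was sequenced in 29 paired-end libraries of 9 ages. Per the submitters' processing notes, HISAT2 2.1.0 (mm10, GRCm38) and HTSeq 0.9.1 were used; the deposited files hold counts per gene symbol (24499 symbols and 5 HTSeq lines, which took 26.1 to 32.5% of the total and were removed). Annotation, strand setting and trimming: not given in the sources used here. For 23 of the 103 named genes, exons overlap a gene on the other strand (Six6, Irs4, Dlx1, Dlx6, Cyp51 and Gng13 among them), so their counts are uncertain, as are those of near-identical copies such as Ly6c1.

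The 24-month replicate 5 held 2377580 counts in 1385 genes, all on chromosomes 1 and 10, and was left out. The other 28 libraries were fitted with edgeR 4.0.16 in R 4.3.3 (TMM, filterByExpr by age, robust quasi-likelihood, 1 mean per age, two-sided tests); 6 months minus 2 months was taken from that fit. P-values were adjusted by Benjamini-Hochberg over the 16916 tested genes and called below 0.05. CPM were computed here with TMM library sizes, log2 values had a prior count of 1, and errors are 1 SE for log2 fold changes and 1 SD for CPM. Averaged over genes, counting error per library is small beside the spread between libraries. That does not cover values that rest on few counts, such as those below 0.075 CPM.

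Members and lists (42 lists, 1019 symbols, 1002 found, 46 in more than 1 list) were chosen by hand with earlier results of these data known, so they are described by counts and medians. Named genes were the 12 highest and 12 lowest log2 fold changes among called genes (at least 5 CPM in the higher age, no overlap, predicted and pseudogene symbols passed over), up to 5 called members of each list by p, and a fixed panel; a few of these are not reported here. Others, and values at 5 weeks and 12 months, were added after values were seen. Positions are from GENCODE M21 (GRCm38) and promoters from RefSeq (GRCm38.p6; 2 of 2 genes matched). Alternatives were the 6 libraries alone, all 29, RLE factors, no filter, DESeq2 1.42.0, each library left out in turn and regional terms. The fit was tested on simulated counts.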

Additional observations from a re-analysis of the deposited data

Results flagged for a closer look

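Vax1 in the 4 libraries of 5 weeks, the age before 2 months, had 1 value away from the rest: replicate 2 had 6.65 CPM, against 10.2 to 10.8 CPM in the others. That value is still above each 2-month library. Of 14 sets of 4 values looked at in this way, this was the only one to stand out, and chance gives about 1 in 20.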

How the results depend on the processing

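Of the counts of called genes (608, with 299 higher and 309 lower at 6 months; 33 regional, 22 glial, 7 vascular and 16 metabolic), all 7 were 0 with the 6 libraries alone (2042 genes at an unadjusted p below 0.05; DESeq2 1284 on 28 libraries), with all 29 libraries (132), with both regional terms (1897) and with the hypothalamic term alone (1797). DESeq2 gave 1284 genes (636 and 648), with 45 glial, 11 vascular and 39 metabolic; on the 6 libraries alone, added after the data were seen like the single terms, it gave 343 (198 and 145), with 11 vascular and 3 metabolic. With the midbrain and hindbrain term alone there were 165 (66 and 99), with 17 regional, 11 glial, 1 vascular and 10 metabolic. RLE factors (621 genes) and no filter on low counts (491) stayed within 1.5 times. Leaving out 1 library gave 51 to 1348 genes, 30 to 603 higher, 21 to 745 lower, 9 to 53 regional, 3 to 34 glial, 0 to 20 vascular and 1 to 53 metabolic, lowest without 6-month replicate 33. Fewer residual degrees of freedom (4 against 19) and, for 29 libraries, the library with few genes enter these fits by construction; otherwise the cause was not tested.

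No called gene of the 77 named changed sign except Nts, Peg10 and Magel2 with a hypothalamic term. With both terms, log2 fold changes turned to −0.067 for Nts, −0.085 for Peg10, −0.16 for Magel2, −0.24 for Agrp, −0.14 for Hcrt, −0.53 for Crh, −0.51 for Sst, 0.065 for Th, 0.34 for Ttr, −0.064 for Tmem119 and −0.31 for Per1. With the hypothalamic term alone they turned to −0.11 for Nts, −0.074 for Peg10, −0.19 for Magel2, −0.25 for Agrp, −0.13 for Hcrt, −0.62 for Crh, −0.56 for Sst, 0.61 for Gata3, 1.32 for Ucn, 0.39 for Th, 0.94 for Ttr, −0.039 for Tmem119, −0.00259 for Fkbp5 and −0.29 for Per1. With the midbrain and hindbrain term they turned to −0.10 for Sst and 0.11 for Th. Leaving out 1 library gave ranges that cross 0 for Agrp (−0.16 to 0.32), Sst (−0.12 to 0.27), Th (−0.53 to 0.071), Ttr (−4.32 to 0.96), Tph2 (−1.63 to 2.34), Npy (−0.68 to 0.061), Tmem119 (−0.00899 to 0.25) and Ldha (−0.14 to 0.035), none of them called. No paired analysis was possible because the replicate numbers of the 2 ages (32, 33 and 34, and 11, 12 and 13) share none. With 3 libraries an age, differences within the spread of these libraries could not be detected.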

Other observations

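Some called genes outside the lists fell into families. They were chosen after their values were seen. Of 14 tested subunits of the GABA-A receptor, the main inhibitory receptor of the brain, 3 were called, all higher at 6 months (1.77% of all tested genes were called higher). Gabrq, a subunit common in the hypothalamus, had 47.7, 66 and 48.6 CPM at 6 months and 19.1, 23.8 and 31.7 CPM at 2 months (log2 fold change 1.12 ± 0.19, adjusted p = 0.00372). Gabre, its neighbour on the X chromosome, had 9.25, 10.2 and 8.12 CPM at 6 months and 3.05, 3.85 and 4.87 CPM at 2 months (1.23 ± 0.27, adjusted p = 0.0151). Gabrg1 had 86.6, 92.3 and 72.5 CPM at 6 months and 59.6, 56.2 and 59.8 CPM at 2 months (0.52 ± 0.10, adjusted p = 0.00695). The widespread subunit genes Gabra2 and Gabra5 overlapped between the ages (0.21 ± 0.14 and 0.13 ± 0.11).

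Gamma protocadherins, adhesion proteins that give neurons their identity, had 7 of 22 tested genes called, all higher at 6 months, with a median log2 fold change of 0.39. Pcdhga4 had 13.5, 14.6 and 11.8 CPM at 6 months and 5.29, 8.22 and 9.47 CPM at 2 months (0.79 ± 0.14, adjusted p = 0.00532). Of 22 beta protocadherins only Pcdhb9 was called (0.52 ± 0.11, adjusted p = 0.0151). These genes share exons or near-identical sequence, so their counts are uncertain.

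Further single genes had large fold changes at low levels, where values below 0.075 CPM rest on fewer than 3 counts. Eomes had 8.98, 4.31 and 0.393 CPM at 6 months and 0.218, 0.0296 and 0.116 CPM at 2 months (adjusted p = 0.0271). Corin had 3, 1.91 and 0.36 CPM at 6 months and 0.181, 0.296 and 0.271 CPM at 2 months (adjusted p = 0.00641). Dmbx1, a midbrain factor, had 0.025, 0.0329 and 0.327 CPM at 6 months and 0.653, 1.6 and 1.86 CPM at 2 months (adjusted p = 0.0129). In the 6-month group, replicate 34 was the lowest for Eomes and Corin and the highest for Dmbx1.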
